A study of Mus musculus with 8 samples.

Results

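The Schlafen genes are described here in dendritic cells cultured from mouse bone marrow, which take up microbes and present their antigens. The cells had been kept overnight with killed (heat-inactivated) bacteria, either P. melaninogenica (PM) or P. heparinolytica (PH), both named in the genus Prevotella. The family was taken by name as 7 genes, Slfn1, Slfn2, Slfn3, Slfn4, Slfn5, Slfn8 and Slfn9, out of 55376 genes in the deposited table. The deposited counts form 3 PM samples and 3 PH samples, numbered 1, 3 and 4 by the sample ids of the labels. No unstimulated cells were analysed here, so each difference is between the 2 bacteria, and the sources used here give no strain, sex or age of the mice. The family was chosen with the PM and PH values of its genes already known. Its differences between PM and PH are therefore given as a description and support nothing.

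Schlafen proteins are a vertebrate family that shares an N-terminal region with ribonuclease activity in several members. Mouse members come as short proteins (Slfn1 and Slfn2), intermediate ones (Slfn3 and Slfn4) and long ones with a helicase-like C-terminal part (Slfn5, Slfn8 and Slfn9). Several of them are induced by type I interferon in mouse macrophages and dendritic cells, and the family is known for effects on lymphocyte quiescence, myeloid differentiation, tRNA cleavage and virus replication.

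All 7 genes lie in 1 cluster on chromosome 11 (GRCm38), from the start of Slfn5 at 82952102 to the end of Slfn3 at 83215154. In order, these are Slfn5 (82952102 to 82964840, plus strand), Slfn9 (82978390 to 82991830, minus), Slfn8 (83002158 to 83020810, minus), Slfn2 (83065112 to 83070678, plus), Slfn1 (83116849 to 83122670, plus), Slfn4 (83175186 to 83190216, plus) and Slfn3 (83191330 to 83215154, plus). The longest coding length in GENCODE release M21 was 1011 bases for Slfn1 and 1134 for Slfn2, 1806 for Slfn4 and 1920 for Slfn3, and 2652 for Slfn5 and 2730 for both Slfn8 and Slfn9. The coding sequences of Slfn8 and Slfn9 were identical at 92.7% of aligned bases and those of Slfn3 and Slfn4 at 92.2%, while no other pair of members was above 76.9%. Of all stretches of 50 bases in the Slfn8 transcripts, 9.30% also occurred in Slfn9 and 10.1% in the pseudogene Slfn10-ps, and 7.39% of those of Slfn3 occurred in Slfn4. Slfn4 also shared stretches with Slfn2, a member at far higher CPM. These were 4.27% of the stretches of Slfn2 and 1.72% of those of Slfn4. The sources used here do not say how the counting treated reads that match several genes, so the values of Slfn8, Slfn9, Slfn3 and Slfn4 as single genes are uncertain.

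The promoters of Slfn5, Slfn8 and Slfn9 each held 1 of the 2 patterns searched. RefSeq lists a start for each of the 7 members (build GRCm38.p6, 2 starts for Slfn8), and the 250 bases before each start were searched on both strands for GAAA followed after any 2 bases by GAAA, a pattern of the element bound by interferon-activated factors (ISRE), and for TTCNNNGAA, a pattern of STAT sites (GAS). The first was found once before each of Slfn5, Slfn8 and Slfn9, with both Slfn8 windows holding the same match, and in none of the windows of Slfn1, Slfn2, Slfn3 and Slfn4, and 2.98% of all 32851 promoter windows of this length hold it. The second was found before none of the 7 members, against 7.02% of all windows. Slfn8 and Slfn9 had the same match, TTTCGTTTTC, which reads as the pattern on the opposite strand and begins 48 bases before the upstream start of Slfn8 and 45 before that of Slfn9, while the match of Slfn5, GAAAAAGAAA, begins 155 bases before it and runs into a stretch of A. The windows are shown for these 3 genes, and for Slfn2 as the most abundant member without a match. Letters in capitals mark the match, and each sequence runs 5′ to 3′ on the strand of its gene up to the base before the start.
Slfn5 (chr11:82951852-82952101, plus strand): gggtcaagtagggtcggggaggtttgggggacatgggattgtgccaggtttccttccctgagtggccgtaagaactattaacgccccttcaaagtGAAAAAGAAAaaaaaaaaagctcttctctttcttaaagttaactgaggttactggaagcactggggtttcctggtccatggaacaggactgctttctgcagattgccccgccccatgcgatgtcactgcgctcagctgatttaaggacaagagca
Slfn8 (chr11:83020811-83021060, minus strand): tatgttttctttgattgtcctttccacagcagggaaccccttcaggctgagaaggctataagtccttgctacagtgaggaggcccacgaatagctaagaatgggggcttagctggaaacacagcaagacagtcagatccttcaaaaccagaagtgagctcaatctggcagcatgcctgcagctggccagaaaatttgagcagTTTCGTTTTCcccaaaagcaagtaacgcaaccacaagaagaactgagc
Slfn9 (chr11:82991831-82992080, minus strand): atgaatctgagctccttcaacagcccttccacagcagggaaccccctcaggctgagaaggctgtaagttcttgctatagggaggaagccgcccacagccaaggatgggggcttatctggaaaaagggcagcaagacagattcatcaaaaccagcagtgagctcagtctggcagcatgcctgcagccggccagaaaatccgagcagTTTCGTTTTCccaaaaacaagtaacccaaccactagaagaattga
Slfn2 (chr11:83064862-83065111, plus strand): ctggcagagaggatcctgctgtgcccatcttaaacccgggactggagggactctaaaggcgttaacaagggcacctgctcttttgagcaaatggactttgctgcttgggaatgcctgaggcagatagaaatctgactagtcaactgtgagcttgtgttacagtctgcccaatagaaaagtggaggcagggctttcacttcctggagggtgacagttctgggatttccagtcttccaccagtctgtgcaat
The windows of Slfn8 and Slfn9 are alike over much of their length, so their matches are not independent and no enrichment is read from them. A match is a description of the letters and not a measured binding site, and the absence of these letters says nothing of other forms of the element.

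The counts per sample ranged from 11624367 in PH replicate 3 to 40233148 in PH replicate 4. PH replicate 3 also stood apart by its level of the predicted gene Gm42418, at 4029 CPM (counts scaled to a library size adjusted by TMM) against 878 to 1496 CPM in the other 5 samples. All 8 listed dendritic cell genes were detected. Itgax was at 161 ± 19.5 CPM in PM samples and 152 ± 16.9 CPM in PH samples (SD, n = 3 each). Irf4, a transcription factor of dendritic cells, was at 274.5 ± 19.4 CPM in PM samples and 332 ± 3.85 CPM in PH samples with no overlap (log2 fold change -0.27 ± 0.07 SE). It did not pass in edgeR without the block (adjusted p = 0.0961) and passed with it (5.8e-05) and in DESeq2 (0.014).

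In PM samples Slfn8, Slfn5 and Slfn1 stood at 43.9%, 44.7% and 44.7% of their fitted PH level, Slfn4 at 55.5% and Slfn9 at 62.4%, while Slfn3 stood at 82.3% and Slfn2, the most abundant member, at 95.7%. All 7 fitted log2 fold changes (PM over PH) were below 0, from -1.19 for Slfn8 to -0.06 for Slfn2, with a median of -0.85 against 0.01 over all 14382 genes tested. All 7 genes passed the filter on low counts. In the edgeR quasi-likelihood fit over all genes, with a Benjamini-Hochberg adjusted p of 0.05 as threshold, 3 of the 7 were lower with PM (Slfn1, Slfn5 and Slfn8) and 0 higher, where 1.64% of all genes tested were called lower and 0.702% higher. With a replicate block on the sample id, 5 were lower (Slfn4 and Slfn9 as well), where 8.27% of all genes were called lower and 7% higher. In 5 of 7 members every PM sample lay below every PH sample, which held for 9.28% of all genes tested. Since the family was chosen on this contrast, nothing is read from these counts. These are bulk samples, in which fewer cells that express a gene and less RNA per cell cannot be told apart.

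**Figure D1:**
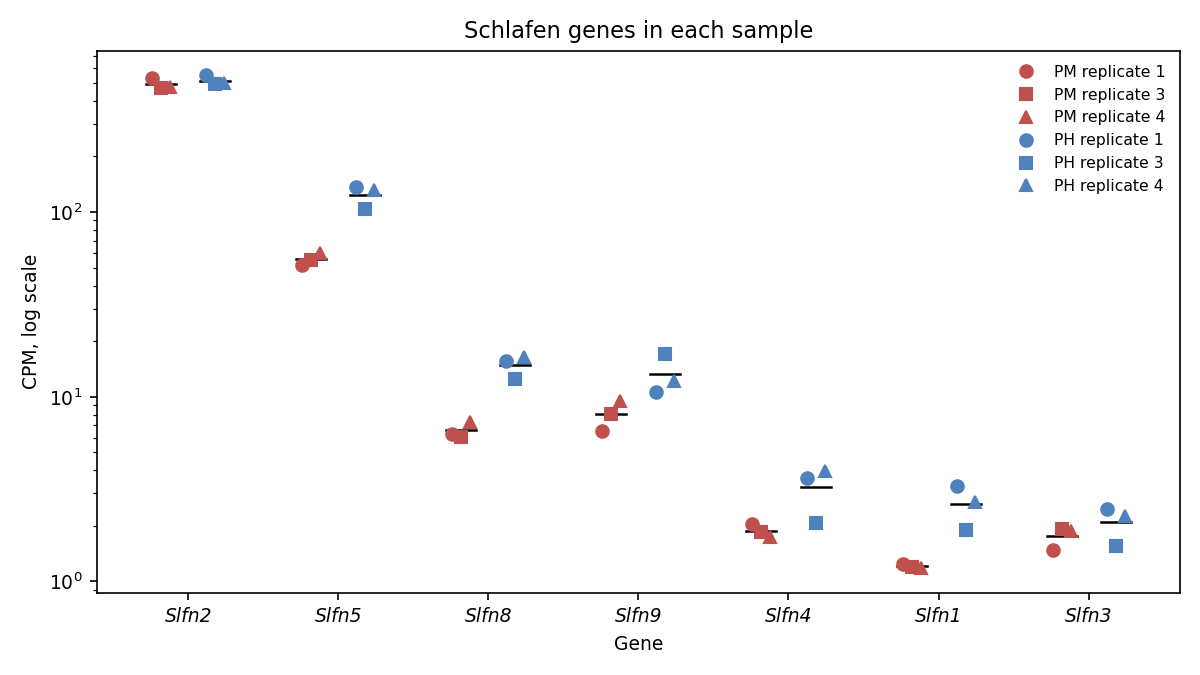
Level of each Schlafen member in each sample, in CPM on a log axis, with PM samples (red) left of PH samples (blue), marker shapes for the sample ids and black lines for the means. Slfn2 lies near 500 CPM in all samples, and the PM and PH points of Slfn5, Slfn8, Slfn9, Slfn4 and Slfn1 do not overlap.

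Slfn5, a long member whose human counterpart restricts herpes simplex virus transcription, was the member with the second highest level. It had 51.6, 54.7 and 59.8 CPM in PM replicates 1, 3 and 4, against 136, 104 and 131 CPM in PH replicates 1, 3 and 4. All PM samples were low and close together, and the groups were far from overlapping. The log2 fold change was -1.16 ± 0.10 (SE), which puts the PM level at 44.7% of the PH level. The log2 ratios within ids 1, 3 and 4 were -1.40, -0.93 and -1.13, so the shallow PH replicate 3 gave the smallest of the 3. Slfn5 was past the threshold with each of the 6 samples left out in turn, with log2 fold changes from -1.27 to -1.10. Exons of Slfn5 overlap those of the antisense gene Slfn5os over 9.26% of their length. Slfn5os itself had 6 to 16 counts in PM samples and 6 to 26 in PH samples, against 1081 to 2332 and 1206 to 5262 counts for Slfn5.

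Slfn8, a long member whose forced expression impairs T cell development in mice, had 6.31, 6.09 and 7.31 CPM in PM replicates 1, 3 and 4, against 15.7, 12.5 and 16.4 CPM in PH replicates 1, 3 and 4. The groups were separate, with the highest PM sample well under the lowest PH sample. Its log2 fold change was -1.19 ± 0.13 (SE), or 43.9% of the PH level, and the log2 ratios by sample id were -1.31, -1.04 and -1.17. As for Slfn5, the call held with each sample left out in turn.

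Slfn9, the close relative next to Slfn8, had 6.54, 8.02 and 9.52 CPM in PM replicates 1, 3 and 4, against 10.6, 17.0 and 12.2 CPM in PH replicates 1, 3 and 4. The groups did not overlap, but PM replicate 4 and PH replicate 1 were close. Its log2 fold change of -0.68 ± 0.19 (SE) was not past the threshold in the fit without the block and was with it. PH replicate 3 was the highest sample for Slfn9, whereas it was the lowest PH sample for the other 6 members. The ratio of Slfn8 to Slfn9 CPM was 0.964, 0.759 and 0.768 in the PM samples, against 1.49, 0.736 and 1.34 in the PH samples, so PH replicate 3 had the ratio of a PM sample. When the counts of the 2 genes were summed before the fit, to take away any exchange of reads between them, the log2 fold change was -0.94 ± 0.11 (SE) and the sum was past the threshold. The sum does not take away any exchange of reads with Slfn10-ps, which shared 10.1% of the stretches of Slfn8 and 8.1% of those of Slfn9.

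**Figure D2:**
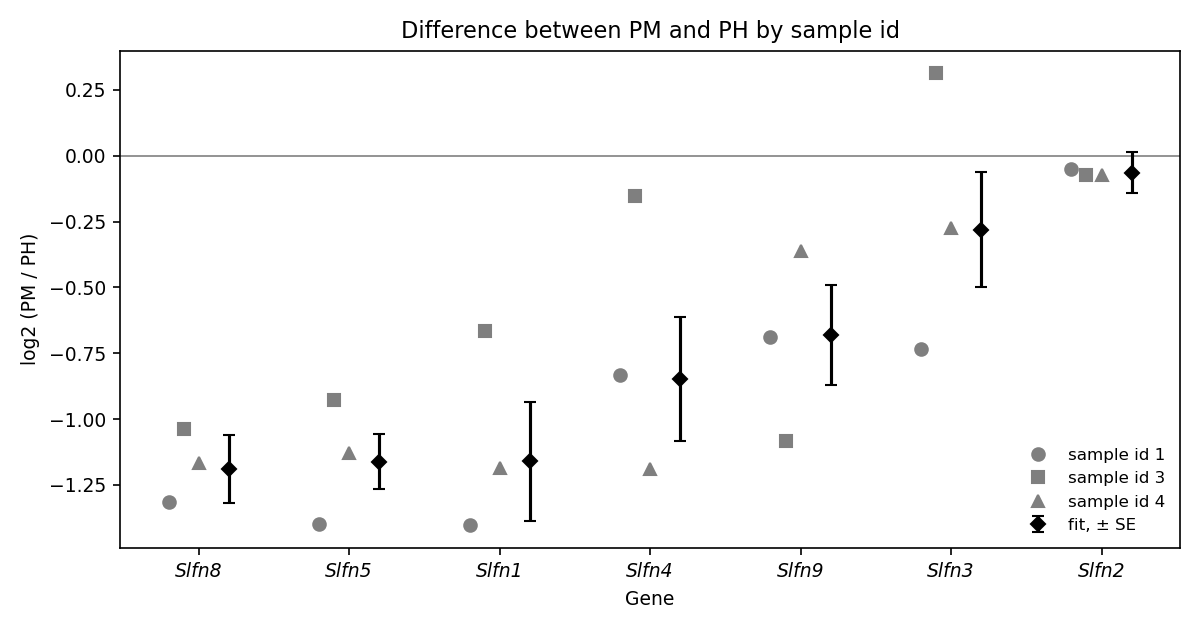
Difference between PM and PH as log2 of the CPM ratio for each sample id (grey) and as the fitted log2 fold change with its SE (black), with genes ordered by the fit. Slfn8, Slfn5 and Slfn1 lie lowest, Slfn2 lies within 0.08 of 0 for every id, and Slfn3 has 1 id above 0.

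Slfn2, a short member that keeps mouse T cells quiescent and protects tRNAs from cleavage, was by far the most abundant. It had 531, 468 and 474 CPM in PM replicates 1, 3 and 4, against 549, 492 and 499 CPM in PH replicates 1, 3 and 4. PM replicate 1 lay within the range of the PH samples and the other PM samples just below it. The log2 fold change was -0.06 ± 0.08 (SE), and the ratios by sample id were -0.05, -0.07 and -0.07 on the log2 scale. Slfn2 was not past the threshold in either fit, and its fitted value lay between -0.13 and -0.02 with each sample left out in turn.

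Slfn1, the other short member, which arrests the growth of mouse thymocytes when overexpressed, was a low gene with 26, 36 and 46 counts in PM replicates 1, 3 and 4, against 80, 22 and 108 counts in PH replicates 1, 3 and 4. In CPM these were 1.24, 1.2 and 1.18 in the PM samples, against 3.28, 1.90 and 2.69 in the PH samples. The PM samples were alike, the PH samples spread more, and the groups did not overlap. The log2 fold change was -1.16 ± 0.23 (SE), or 44.7% of the PH level. With all samples Slfn1 also passed with the block (edgeR adjusted p = 1.6e-04) and in DESeq2 (0.00357). Without the block its call did not hold with every sample left out in turn. The edgeR adjusted p was 0.131 without PM replicate 3, 0.165 without PM replicate 4, 0.104 without PH replicate 1 and 0.153 without PH replicate 4, while the log2 fold change stayed between -1.31 and -1.0 with each sample left out in turn. Without PM replicate 3, PM replicate 4, PH replicate 1 or PH replicate 4, 142 to 240 of all genes were called, against 337 with all samples.

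The intermediate members were low as well. Slfn4, which is expressed in myeloid cells and is induced in activated macrophages, had 2.05, 1.86 and 1.75 CPM in PM replicates 1, 3 and 4, against 3.65, 2.07 and 3.98 CPM in PH replicates 1, 3 and 4. PH replicate 3 was almost level with PM replicate 1, and the other PH samples stood clear. The log2 fold change of Slfn4 was -0.85 ± 0.24 (SE), not past the threshold without the block, past it with the block, and past it without PH replicate 3 (-1.04, edgeR adjusted p = 0.0411). Without any 1 of the other 5 samples it was not, with adjusted p from 0.116 to 0.496 by edgeR. Slfn3, studied in rat for its part in enterocyte differentiation, had 1.48, 1.93 and 1.87 CPM in PM replicates 1, 3 and 4, against 2.46, 1.55 and 2.26 CPM in PH replicates 1, 3 and 4. The groups overlapped, and PM was higher for id 3, at a log2 ratio of 0.31, and lower for the other 2 ids. Its log2 fold change of -0.28 ± 0.22 (SE) was past the threshold in neither fit. With the counts of Slfn3 and Slfn4 summed, the log2 fold change was -0.59 ± 0.20 (SE), which was past the threshold with the block and not without it. The sum does not take away any exchange of reads between Slfn4 and Slfn2. The counts behind these values were as low as 24 for Slfn4 and 18 for Slfn3 in PH replicate 3, where PH replicate 4 had 160 and 91.

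Compared per length, the order of levels was led by Slfn2 and Slfn5 in every sample. On the RPKM scale (CPM divided by exon length in kilobases), Slfn2 was at 295 ± 20.9 in PM samples and 308 ± 18.9 in PH samples, and Slfn5 at 9.18 ± 0.687 in PM samples and 20.5 ± 2.84 in PH samples (SD, n = 3 each). Slfn8 followed at 1.64 ± 0.163 RPKM in PM samples and 3.71 ± 0.517 RPKM in PH samples. Slfn9 was at 1.36 ± 0.253 RPKM in PM samples and 2.26 ± 0.569 RPKM in PH samples. Neighbours in the order overlapped between samples for Slfn8 and Slfn9 in PM, and for Slfn1 and Slfn3 and for Slfn3 and Slfn4 in PH. The 3 low members lay between 0.440 and 1.06 RPKM in PM samples and between 0.523 and 1.76 RPKM in PH samples. Their order changed with the length used, since with the coding length in place of the exon length Slfn3 was the lowest.

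Slfn2 made up most of the family in every sample, and the total of the 7 members differed less than the sum of the other 6. All 7 members together had 601, 542 and 556 CPM in PM replicates 1, 3 and 4, against 721, 631 and 667 CPM in PH replicates 1, 3 and 4. Without Slfn2 the sum was 69.3, 73.8 and 81.5 CPM in the PM samples, against 172, 139 and 169 CPM in the PH samples. The share of Slfn2 was 88.5%, 86.4% and 85.3% of the family in the PM samples, against 76.2%, 77.9% and 74.7% in the PH samples. The CPM of Slfn2 was 10.3, 8.56 and 7.92 times that of Slfn5 in the PM samples, against 4.04, 4.72 and 3.81 times in the PH samples.

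**Figure D3:**
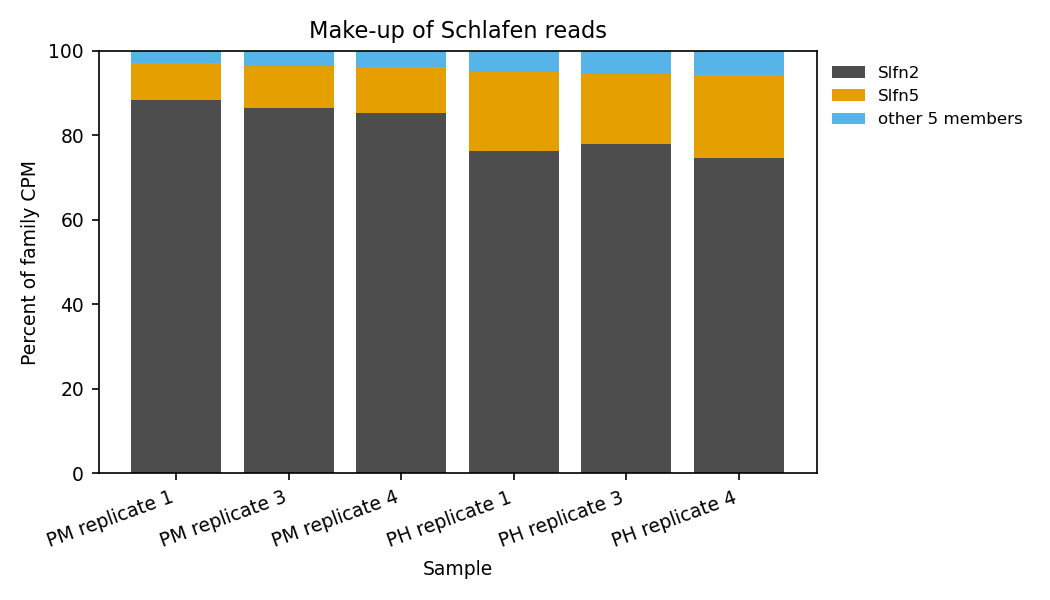
Share of Slfn2, Slfn5 and the other 5 members in the summed CPM of the family, as percent, in each PM and PH sample. The share of Slfn2 is 85.3% or more in PM samples and 77.9% or less in PH samples, and that of Slfn5 is 8.60% to 10.8% in PM samples and 16.5% to 19.6% in PH samples.

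Variation between the sample ids is not the contrast the family was chosen on. In the fit with treatment and id, 2 of 7 members differed by sample id at an adjusted p of 0.05 (edgeR quasi-likelihood F test), against 18.9% of all genes. Slfn2 averaged 540 CPM for id 1, 480 CPM for id 3 and 486 CPM for id 4 (adjusted p = 0.0444 by edgeR), and its highest sample in both treatments was that of id 1. Slfn9 averaged 8.55 CPM for id 1, 12.5 CPM for id 3 and 10.9 CPM for id 4 (adjusted p = 0.0392 by edgeR), and id 1 was its lowest in both treatments. Neither call held with every sample left out in turn. For Slfn2 the edgeR adjusted p was 0.169 without PM replicate 1, 0.165 without PM replicate 3, 0.0995 without PM replicate 4, 0.0415 without PH replicate 1, 0.196 without PH replicate 3 and 0.0866 without PH replicate 4. For Slfn9 it was 0.0595 without PM replicate 1, 0.0666 without PH replicate 1 and 0.126 without PH replicate 3, and at most 0.0074 without any of the other 3. Slfn5, not called with all samples (0.114), passed without PM replicate 1 (2.2e-05), PM replicate 3 (0.00321) or PH replicate 1 (1.1e-04). The number of members called was 0 to 2 in these fits, where 11.4% to 23.7% of all genes were called. It was 0 without PH replicate 3 in edgeR, where 2 of 7 had an unadjusted p under 0.05.

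The table holds 4 more genes with Schlafen names that are not among the 7. Slfn10-ps, a transcribed pseudogene between Slfn8 and Slfn2, had 10.2, 10.7 and 12.5 CPM in PM replicates 1, 3 and 4, against 16.2, 12.7 and 15.9 CPM in PH replicates 1, 3 and 4. The groups were close but did not overlap, and its log2 fold change of -0.43 ± 0.12 (SE) did not pass without the block (edgeR adjusted p = 0.135) and passed with it (9.3e-04). Slfn5os, the antisense gene, did not pass in either fit (-0.57 ± 0.32 SE). Slfn14, a long member known for its part in platelets, had 1 to 3 counts in each sample and Slfnl1 at most 1, so neither was tested.

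Genes around the cluster were not called in the fit without the block. Within 300 kb of the outermost members lie 40 genes without a Schlafen name, of which 18 were tested. Of these, 0 passed in edgeR without the block, 0 had an unadjusted p under 0.05 and 0 passed in DESeq2. With the block 1 was called lower, Rffl, where 8.27% of all genes were called lower. Rffl was at 35.4 ± 4.06 CPM in PM samples and 41.5 ± 6.44 CPM in PH samples, which overlapped. Its log2 fold change was -0.23 ± 0.06 (SE) with the block and -0.24 ± 0.12 (SE) without it. The log2 fold changes of the 18 genes without the block ranged from -0.53 for Rasl10b to 0.43 for 1700020L24Rik, with a median of 0.00. The flanking genes with tight estimates lay near 0, such as Rad51d, a DNA repair gene, at -0.02 ± 0.08, and Ap2b1, an adaptor of clathrin coats, at -0.09 ± 0.06 (SE).

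**Figure D4:**
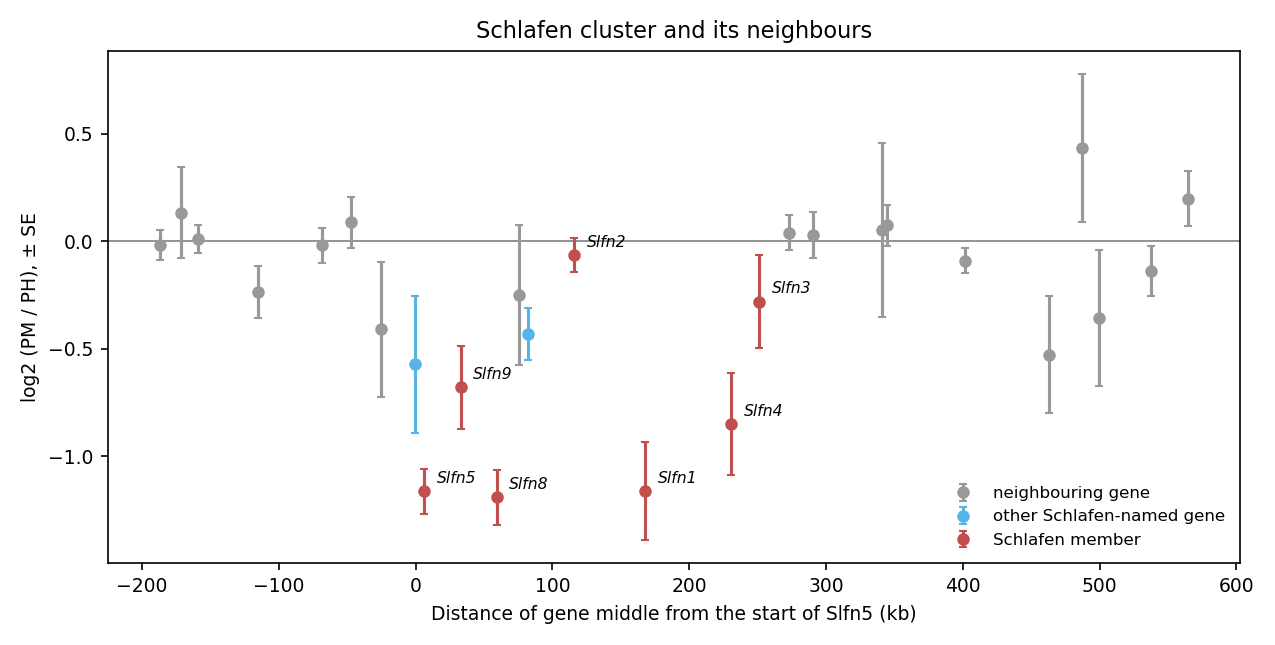
Fitted log2 fold change (PM over PH) with its SE for the tested genes of the cluster and of the 300 kb on each side, by the distance of the middle of the gene from the start of Slfn5 in kb. Schlafen members are red, other genes with a Schlafen name blue and neighbours grey, and the members at or below -0.68 lie among members near 0 and neighbours whose values range from -0.53 to 0.43.

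Type I interferon is a known inducer of several members, and its part in their differences was not tested. Most of its listed target genes and some of its signalling genes were lower with PM. These lists were chosen with earlier results of these data known, so their counts are a description. Ifnb1, the main first interferon of stimulated myeloid cells, had 0 to 3 counts in PM samples and 0 to 4 in PH samples and was not tested. The receptor chains Ifnar1 and Ifnar2 had log2 fold changes of -0.04 ± 0.08 and -0.04 ± 0.10 (SE) and did not pass. Of the 5 interferon and receptor genes tested, 0 passed in edgeR without the block and 0 in DESeq2. With the block 1 was lower, Ifng, the gene of interferon-gamma, against 8.27% of all genes called lower. The unadjusted p of this gene was also under 0.05. Ifng had 3, 10 and 18 counts in PM replicates 1, 3 and 4, against 14, 12 and 38 counts in PH replicates 1, 3 and 4, and its log2 fold change was -1.30 ± 0.40 (SE). Of 13 signalling genes, 4 were lower with PM and 0 higher (median log2 fold change -0.45), against 1.64% of all genes called lower. With the block 10 were lower and 0 higher, against 8.27% of all genes called lower. Irf9, a subunit of the factor that binds the ISRE, was at 67.4 ± 6.08 CPM in PM samples and 97.3 ± 0.415 CPM in PH samples (-0.53 ± 0.07 SE), while Stat2, another subunit (-0.45 ± 0.10), did not pass without the block and passed with it. Irf7, an interferon-induced factor, was at 6.62 ± 1.10 CPM in PM samples and 30.7 ± 6.26 CPM in PH samples. Of 31 interferon-stimulated genes, 28 were lower with PM and 0 higher (median -1.34 on the log2 scale), against 1.64% of all genes called lower. With the block all 31 were lower, against 8.27% of all genes. Isg15, at -1.97 ± 0.09 (SE), differed by more than any Schlafen member. Without PM replicate 1, 8 signalling genes were lower with PM.

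Genes tied to tRNA cleavage, the process in which Slfn2 acts, included 1 that passed. Of 7 tested, 1 was higher with PM and 0 lower, where 0.702% of all genes were called higher. With the block 1 was higher and 1 lower, where 7% and 8.27% of all genes were called. Rnh1, which inhibits the tRNA-cleaving ribonuclease angiogenin, was at 564 ± 20.7 CPM in PM samples and 436 ± 9.61 CPM in PH samples (0.37 ± 0.06 SE, edgeR adjusted p = 0.0206). Ang, the gene of angiogenin, was at -0.40 ± 0.26 and did not pass. Of 11 quiescence and growth control genes 1 was lower with PM, the cell cycle inhibitor Cdkn1a, at 571 ± 13 CPM in PM samples and 748 ± 16.0 CPM in PH samples (-0.39 ± 0.06 SE), where 1.64% of all genes were called lower. With the block 3 were lower and 2 higher, where 8.27% and 7% of all genes were called. The higher ones were Btg1, at 956 ± 64.4 CPM in PM samples and 847 ± 24.1 CPM in PH samples, and Klf4, at 8.86 to 11.1 CPM in PM samples and 6.12 to 9.13 CPM in PH samples, which overlapped.

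Schlafen genes are also expressed in other blood cells, so marker lists of these cells are given beside the members, and their part in the differences was not tested. Of all genes tested, edgeR called 1.64% lower and 0.702% higher without the block, and 8.27% lower and 7% higher with it. DESeq2 called 574 of the 14382 genes, and 1889 had an unadjusted p under 0.05 in edgeR without the block. The summed level of 5 monocyte markers was 187 to 255 CPM in PM samples and 235 to 331 CPM in PH samples, with 0 of 5 called in edgeR, 1 in DESeq2, 3 at an unadjusted p under 0.05 and 3 lower with the block. That of 8 neutrophil markers was 321 to 446 CPM in PM samples and 434 to 531 CPM in PH samples. Of 7 tested, 1 was lower in edgeR without the block, Csf3r, at 8.41 ± 0.187 CPM in PM samples and 16.3 ± 0.837 CPM in PH samples. With the block 3 of the 7 were lower, while 1 was called in DESeq2 and 2 had an unadjusted p under 0.05. The sum of 7 macrophage markers was 792 to 1076 CPM in PM samples and 688 to 969 CPM in PH samples. Of 6 tested, 0 were lower and 1 higher in edgeR without the block, and 1 was lower and 2 higher with it. T cell markers (7 genes) summed to 21.4 to 33.3 CPM in PM samples and 23.1 to 35.3 CPM in PH samples, and B cell markers (5 genes) to 9.96 to 22.1 CPM in PM samples and 9.59 to 18.2 CPM in PH samples. In both lists 0 passed in edgeR, 0 in DESeq2 and 0 at an unadjusted p under 0.05. NK cell markers (5 genes) summed to 3.82 to 6.13 CPM in PM samples and 5.71 to 9.06 CPM in PH samples, with 0 of 3 tested called in edgeR, 1 in DESeq2, 1 at an unadjusted p under 0.05 and 1 lower with the block. The 8 dendritic cell markers summed to 8225 to 9852 CPM in PM samples and 8389 to 10210 CPM in PH samples. Of these, 0 were called in edgeR without the block, and 1, Irf4, in DESeq2, with the block and at an unadjusted p under 0.05. No marker was at 0 in all samples.

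Genes whose pattern was most like that of the family were looked up over the 6 samples. The 10 with the highest Pearson correlation to the mean log2 CPM of the 7 members were Lgals3bp, Cyfip1, H2-T24, Ddx58, Rnf213, Abhd18, Tor1aip1, Eif2ak2, Map2k1 and Fosl2, with r from 0.991 to 0.995. Ddx58 encodes the RNA sensor RIG-I and Eif2ak2 the double-stranded RNA-activated kinase PKR. Ddx58 had 9.75, 10.2 and 11.0 CPM in PM replicates 1, 3 and 4, against 27.5, 16.2 and 26.4 CPM in PH replicates 1, 3 and 4, and so shared with Slfn1, Slfn4, Slfn5 and Slfn8 a PH replicate 3 below the other PH samples. With 6 samples that share 2 treatments, many genes reach such an r, and it is a description only.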

How the data were processed

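Polyadenylated RNA of the stimulated cells was made into strand-marking libraries, per the labels' protocols. The authors deposited whole-number read counts per gene with no normalization, and the deposited exon length per gene was used for RPKM. Trimming was by Trimmomatic, and STAR 2.5.3a, the build GRCm38 and featureCounts 1.6.4 were also used, per the submitters' processing notes. Sources used here do not give the strand setting or the handling of multiply matching reads. The series lists 8 libraries, 4 PM and 4 PH, and the table has 6 count columns. PM with id 1 and PH with id 3 each match 2 libraries (2 runs) by name. The sources used here do not say if those columns hold 1 run or both, and each column was used as 1 sample.

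After filterByExpr (minimum count 10) and TMM scaling, counts were fitted in edgeR 4.0.16 under R 4.3.3 by glmQLFit with robust estimates and glmQLFTest, PM over PH, with Benjamini-Hochberg adjustment over the 14382 genes left and a threshold of 0.05. The SE was derived from F. Since nothing in the labels ties an id to an animal or a culture, p-values reflect only the spread between samples, in part perhaps technical. The same id in both treatments gave correlations of deviations from the treatment mean of 0.44, 0.322 and 0.244 (log2 CPM, prior count 2), which meets the level set for taking ids as pairs, from the counts and not the labels. Results are from the fit without the block, and the blocked value or count is given beside them where it changes a call that the text reports. The least chi-square per degree of freedom between 2 columns was 4.63, so no column repeats another. Alternatives were other scalings, other filters, DESeq2 1.42.0, the block, and leaving out samples.

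The members and the gene lists were chosen with earlier results of these data known. The text names the 7 members, other genes with a Schlafen name, genes within 300 kb, the 10 most alike and chosen pathway genes, of which some items are not reported here; Rffl, Rasl10b, 1700020L24Rik, Rad51d, Ap2b1, Cdkn1a, Csf3r, Itgax, Irf4, Ifng, Btg1 and Klf4 were singled out after their values were seen. Promoters are from RefSeq (GRCm38.p6), and coding lengths and transcripts from GENCODE release M21, which has the build of the files. A comparison of proteins was planned and not run.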

Additional observations from a re-analysis of the deposited data

How the results depend on the processing

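With another scaling (DESeq2 size factors or library totals), a filter of 1 CPM in 3 samples or DESeq2, the number of members lower with PM was 3 to 4. It was 5 with no low-count filter, 5 with the replicate block, 5 with the block and id 3 left out (added after seeing the data) and 2 to 4 without 1 sample. No member reversed its direction under these alternatives. The median log2 fold change of all genes was 0.00 with DESeq2 size factors and 0.03 with library totals, against 0.01. Slfn9 was past the threshold with DESeq2 as well, and Slfn4 was not.

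Of all genes, 846 passed with no filter, 574 with DESeq2, 2197 with the replicate block and 142 to 417 without 1 sample, against 337. For the signalling list the count lower was 7 with no filter, 10 with the block and 3 to 8 without 1 sample, against 4. For the list of interferons and receptors it was 1 with no filter, 1 with the block and 0 with each sample left out in turn, against 0. The interferon-stimulated count was 22 to 29 without 1 sample. The number of members that differed by sample id was 0 to 2 without 1 sample, against 2, in alternatives added after seeing the data. The causes were not tested.

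With the GENCODE coding length in place of the exon length, also added after seeing the data, mean RPKM over the 6 samples was 1.90 for Slfn1, 443 for Slfn2, 1.42 for Slfn4, 33.8 for Slfn5, 3.93 for Slfn8 and 3.90 for Slfn9, against 1.03, 302, 0.646, 14.8, 2.67 and 1.81, and the planned coding length from RefSeq was not run. Depth limits Slfn1, Slfn3 and Slfn4, with 18 to 24 counts each in PH replicate 3.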
